A study of Mus musculus with 12 samples.

Results

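The inhibitor of DNA binding (Id) genes *Id1*, *Id2* and *Id3* were followed together with 5 further genes of the bone morphogenetic protein (BMP) response, *Smad6*, *Atoh8*, *Bambi*, *Bmper* and *Smad1*, in mouse liver. The 8 genes were given by name as a list, chosen with earlier results of these data known, and all 8 were found among the 54838 gene rows of the count table, of which 26191 held at least 1 read. The libraries came from total liver RNA of 12 C57BL/6J mice in 4 groups of 3, whose drinking water was plain or held 25 mM ZnSO4 for 7 days before PBS or 200 µg of dexamethasone (Dex), a synthetic glucocorticoid, was injected and the liver taken 2 h later. The groups are called water-PBS (plain water, PBS), zinc-PBS (ZnSO4 water, PBS), water-Dex (plain water, Dex) and zinc-Dex (ZnSO4 water, Dex), water-PBS being the control. No genetic change is named in the labels, which give the strain but not the age of each mouse, and all mice received an injection. Nothing in the labels says more of the replicates than their numbers, so p-values measure the spread between these 12 samples.

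BMPs are secreted ligands that bring together type I and type II serine/threonine kinase receptors on the cell surface. The activated receptors phosphorylate SMAD1, SMAD5 and SMAD9, which enter the nucleus with SMAD4 and switch on target genes. Among the best known of these targets are the Id genes themselves. Id proteins have a helix-loop-helix fold but lack the basic region that contacts DNA, so they bind the E proteins TCF3, TCF4 and TCF12 and keep them away from their sites. In the liver, BMP signalling is known above all for the control of hepcidin, the iron hormone made by hepatocytes, by ligands made in sinusoidal endothelial cells. The remaining genes have other roles in the same pathway. SMAD6 is an inhibitory SMAD induced by the pathway it blocks, ATOH8 is a basic helix-loop-helix transcription factor induced by BMP, BAMBI is a transmembrane pseudoreceptor without a kinase domain, and BMPER is a secreted protein that binds BMPs outside the cell.

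In GENCODE M21 coordinates of GRCm38 (mm10), *Id1* (ENSMUSG00000042745) lies on chromosome 2 at 152736251 to 152737410, *Id2* (ENSMUSG00000020644) on chromosome 12 at 25093799 to 25097140, and *Id3* (ENSMUSG00000007872) on chromosome 4 at 136143497 to 136145755. *Smad6* (ENSMUSG00000036867) lies on chromosome 9 at 63953076 to 64022059, *Atoh8* (ENSMUSG00000037621) on chromosome 6 at 72206177 to 72235577, *Bmper* (ENSMUSG00000031963) on chromosome 9 at 23223076 to 23485200, and *Smad1* (ENSMUSG00000031681) on chromosome 8 at 79338395 to 79399518. The identifier of *Bambi* is ENSMUSG00000024232. None of the 8 shares exon sequence with another annotated gene on either strand. The stretches upstream of the RefSeq transcription start (GRCm38.p6) are shown for the 3 genes below because these genes had lower levels after Dex and their windows hold a match to a searched motif outside the annotated exons. Capitals mark the match, and the strand shown is that of the gene. For *Id2* only the 89 bases of the window farthest from the start are shown, since an annotated exon begins after them. These 89 bases lie within the annotated span of *Id2*, not outside the gene.
*Id2*, chr12:25096254-25096342, minus strand: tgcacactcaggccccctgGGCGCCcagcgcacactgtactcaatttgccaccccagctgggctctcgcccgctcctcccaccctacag
*Smad6*, chr9:64022060-64022309, minus strand: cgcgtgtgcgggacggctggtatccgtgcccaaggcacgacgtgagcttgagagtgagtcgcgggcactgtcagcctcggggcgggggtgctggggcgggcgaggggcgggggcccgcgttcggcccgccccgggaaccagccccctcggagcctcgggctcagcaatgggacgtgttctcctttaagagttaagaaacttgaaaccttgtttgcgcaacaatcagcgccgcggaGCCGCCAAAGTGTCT
*Atoh8*, chr6:72235578-72235827, minus strand: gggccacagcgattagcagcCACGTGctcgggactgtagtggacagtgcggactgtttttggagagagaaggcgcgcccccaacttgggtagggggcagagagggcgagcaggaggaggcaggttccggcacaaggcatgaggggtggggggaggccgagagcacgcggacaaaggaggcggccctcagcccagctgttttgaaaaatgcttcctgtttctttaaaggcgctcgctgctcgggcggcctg

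Of the 8 genes, 6 matched an entry of the RefSeq promoter table, and 5 motifs were searched on both strands of the 250 bases before their start. GGCGCC, a GC-rich element bound by SMAD proteins, was found upstream of *Id2* at 231 to 226 bases before the start and is present in 9.59% of the 32817 windows of this length in the RefSeq table. The SMAD1/SMAD4 element, searched as GNCGNC and GTCT with any 5 bases between them, was found upstream of *Smad6* in the last 15 bases before the start and is present in 0.512% of windows. CACGTG, a form of the E-box, was found upstream of *Atoh8*, 230 to 225 bases before the start, and is present in 6.02%. Other forms of the E-box were not searched, so sites of E proteins were not assessed. The palindromic glucocorticoid response element, searched as AGAACA and TGTTCT with any 3 bases between them and present in 0.00914% of windows, and the cAMP response element TGACGTCA, present in 1.55%, had no match in the windows searched. The exact glucocorticoid palindrome is so rare that its absence from 6 windows carries no information. Inexact forms and more distant sequence were not searched. The *Id3* window, which the annotation places within an exon of a longer transcript, and the *Bmper* and *Smad1* windows held none of the 5 motifs. The windows of *Id2*, *Id3*, *Smad6* and *Atoh8* were 62.8%, 62.8%, 66.8% and 63.2% G and C, against a median of 52.4% over all windows. A match describes these letters only.

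Levels are given as normalized read counts, that is, reads per gene divided by the DESeq2 size factor of the library. Total counts were 9091152 to 12303527 per library. Per kilobase of exon in water-PBS mice, the order from highest to lowest was *Id2* at 768 ± 116 normalized counts per kb (SD, n = 3), *Id3* at 490 ± 201, *Id1* at 157 ± 35.9, *Atoh8* at 85.3 ± 6.2, *Smad6* at 29.8 ± 1.90, *Smad1* at 23.1 ± 1.23, *Bambi* at 6.99 ± 0.702 and *Bmper* at 3.15 ± 0.221. *Id2* and *Id3* overlapped between mice, and no other neighbours in this order did. Some libraries were high or low for most of the 8 genes at once. Water-Dex replicate 1 had the lowest normalized count of its group for all 8 genes, and water-PBS replicate 3 had the highest of its group for all but *Smad1*.

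Dex on plain water lowered *Id2* and *Id3* more than any other of the 8 genes. *Id2* was at 1790.5, 1639.9 and 2187 normalized counts in the 3 water-PBS mice and at 135, 203 and 322 in the 3 water-Dex mice. Every water-Dex mouse lay far below every control. This is a log2 fold change of -3.09 (SE 0.218), or 8.51-fold lower, with an adjusted p of 4.9e-43 in DESeq2's Wald test, Benjamini-Hochberg adjusted over all genes tested. *Id3* was at 567, 792 and 1273 normalized counts in water-PBS and at 94.4, 147 and 135 in water-Dex. Here the controls varied widely, but the lowest control still lay above the highest treated mouse. The log2 fold change was -2.81 (SE 0.261, adjusted p = 4.7e-25), or 7.00-fold lower. Among the 354 genes called lower in this comparison whose mean over the 12 libraries was 50 normalized counts or more, *Id2* had the 13th and *Id3* the 16th largest decrease.

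*Id1* had a less certain difference. Its normalized counts were 163, 153 and 230 in water-PBS and 47.7, 146 and 149 in water-Dex. The groups did not overlap, but replicates 2 and 3 of water-Dex lay just under the lowest control. The log2 fold change of -0.67 (SE 0.336, adjusted p = 0.153) did not pass the test, and without water-Dex replicate 1 it was -0.30. *Id1* thus went from the lowest of the 3 Id genes per kb in controls to 98.5 ± 49.7 normalized counts per kb in water-Dex mice, beside 90.2 ± 38.7 for *Id2* and 69.9 ± 15.3 for *Id3*, levels that overlapped.

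**Figure D1:**
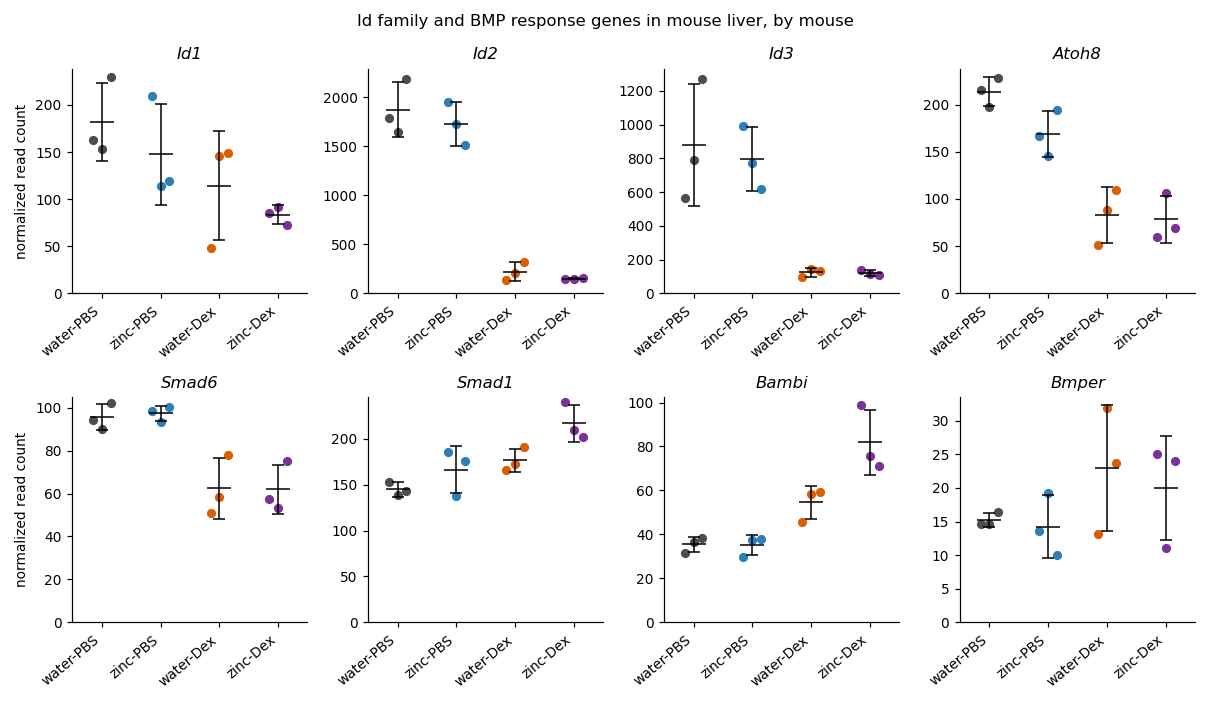
Normalized read count (y axis, linear, from 0) of each of the 8 genes in the 3 mice of each group (x axis). Points are mice, horizontal lines the group mean and bars ± 1 SD. *Id2* and *Id3* sat between 94.4 and 322 in all 6 Dex-injected mice and between 567 and 2187 in all 6 PBS-injected mice, while *Bambi* reached 71.1 to 98.8 in zinc-Dex mice.

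*Atoh8*, the transcription factor, was at 215, 197 and 228 normalized counts in water-PBS mice and at 50.8, 88.3 and 109.8 in water-Dex mice. The groups were well apart, and the gene fell by 1.36 on the log2 scale (SE 0.247, adjusted p = 5.9e-07), or 2.57-fold. *Smad6*, the inhibitory SMAD, was at 94.5, 90.1 and 102 in water-PBS and 50.8, 58.5 and 78.2 in water-Dex. All treated mice were below all controls and the adjusted p was 0.0184, but the log2 fold change of -0.61 (SE 0.206) was smaller than the 0.8 that a call required. Its adjusted p was 0.149 without water-Dex replicate 1.

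*Bambi*, the pseudoreceptor, differed the other way. Its normalized counts were 31.5, 36.4 and 38.4 in water-PBS and 45.7, 58.5 and 59.4 in water-Dex, with no overlap, a log2 fold change of 0.62 (SE 0.252) and an adjusted p of 0.0606, just short of the threshold. *Smad1*, the receptor-activated SMAD, was at 153, 138 and 143 in water-PBS and 167, 172 and 191 in water-Dex (log2 fold change 0.29, SE 0.153, adjusted p = 0.184). *Bmper* was the lowest of the 8, with 10 to 30 reads per library. It was at 14.7, 14.6 and 16.5 normalized counts in water-PBS and 13.2, 31.9 and 23.7 in water-Dex, so the groups overlapped (log2 fold change 0.59, SE 0.437, adjusted p = 0.389).

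To be called, a gene needed an adjusted p under 0.05 together with a log2 fold change beyond 0.8 in either direction. With Dex on plain water, 3 of the 8 genes were called lower (*Id2*, *Id3*, *Atoh8*) and 0 higher, where 4.79% of the 14221 genes tested were called lower and 4.89% higher. The groups did not overlap for 7 of the 8, against 39.0% of all genes tested. The median log2 fold change of the 8 was -0.64, and that of all genes tested was -0.01.

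The second question was whether Dex acted on these genes in the same way in mice that had drunk ZnSO4. *Id2* was at 1949, 1725 and 1506 normalized counts in the 3 zinc-PBS mice and at 148, 144 and 157 in the 3 zinc-Dex mice. The zinc-Dex mice were close together and far below the others. The gene fell by 3.53 on the log2 scale (SE 0.222, adjusted p = 2.6e-54), or 11.5-fold. *Id3* was at 993, 773 and 616 in zinc-PBS and 141, 112 and 108 in zinc-Dex, a log2 fold change of -2.72 (SE 0.262, adjusted p = 2e-23). *Id1* was at 209, 114 and 119.5 in zinc-PBS and 85.8, 92.2 and 73.1 in zinc-Dex. All zinc-Dex mice lay lower, but zinc-PBS replicate 1 carried much of the difference, and the log2 fold change of -0.82 (SE 0.340) had an adjusted p of 0.0723. Without zinc-PBS replicate 1 it was -0.48.

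*Atoh8* was at 167, 145 and 195 normalized counts in zinc-PBS and at 59.7, 107 and 69.2 in zinc-Dex, and fell by 1.11 on the log2 scale (SE 0.249, adjusted p = 0.00011). *Smad6* was at 98.4, 93.5 and 100.5 against 57.6, 53.3 and 75.0. Its log2 fold change of -0.65 (SE 0.204, adjusted p = 0.0109) was close to that on plain water and again smaller than 0.8. *Bambi* was at 29.8, 37.6 and 38.0 in zinc-PBS and at 98.8, 75.5 and 71.1 in zinc-Dex. It rose 2.32-fold (log2 fold change 1.22, SE 0.239, adjusted p = 5.9e-06), with every zinc-Dex mouse far above every zinc-PBS mouse. *Smad1* was at 186, 137 and 176 against 240, 209.9 and 202, a log2 fold change of 0.39 (SE 0.147) with an adjusted p of 0.0445. *Bmper* was at 13.5, 19.2 and 9.96 against 25.0, 11.1 and 24.0, and the groups overlapped (adjusted p = 0.511).

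With Dex on zinc water, 3 of the 8 genes were called lower (*Id2*, *Id3*, *Atoh8*) and 1 higher (*Bambi*), where 4.68% and 5.0% of the 15657 genes tested were called lower and higher. Groups did not overlap for 7 of the 8, against 38.1% of all genes. *Id2* was 7th and *Id3* 22nd of the 383 genes called lower at the same minimum mean, and *Bambi* was 311th of the 556 called higher. The 2 Dex comparisons use different mice throughout.

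Zinc-Dex mice were also set against the untreated control, which shares its mice with the comparison on plain water. *Id2* was 12.5-fold lower (log2 fold change -3.64, SE 0.222), *Id3* 7.29-fold lower (-2.87, SE 0.262) and *Atoh8* 2.73-fold lower (-1.45, SE 0.248). *Id1* was called here, 2.17-fold lower (log2 fold change -1.12, SE 0.339, adjusted p = 0.0063), since the 3 zinc-Dex mice at 73.1 to 92.2 normalized counts were all far below the 3 controls at 153 to 230. This call was lost when the replicate number was added to the fit (adjusted p = 0.0935) and without either of water-PBS replicates 1 and 3 or any zinc-Dex replicate (adjusted p = 0.0592 to 0.148). *Bambi* was 2.31-fold higher (log2 fold change 1.20, SE 0.244, adjusted p = 1.1e-05). *Smad1* was higher in all 3 zinc-Dex mice (0.59, SE 0.151, adjusted p = 0.00087) and *Smad6* lower (-0.62, SE 0.207, adjusted p = 0.0154), both by less than the fold threshold. In all, 4 of the 8 were called lower and 1 higher, against 5.63% and 5.59% of the 14221 genes tested, and groups did not overlap for 7 of the 8 against 39.9% of all genes.

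Zinc alone, in PBS-injected mice, left none of the 8 genes past the test. In DESeq2 0 of the 8 were called, with 0 at an unadjusted p under 0.05, and edgeR's quasi-likelihood test also gave 0 and 0. The background was low, with 0.138% of the 12307 genes tested called in either direction. The log2 fold changes ran from -0.34 for *Atoh8* to 0.20 for *Smad1*. *Atoh8* was the 1 gene of the 8 whose groups did not overlap, with 197 to 228 normalized counts in water-PBS and 145 to 195 in zinc-PBS, against 11.9% of all genes tested without overlap, and its unadjusted p was 0.152. The 95% intervals of the log2 fold change were -0.53 to 0.30 for *Id2*, -0.64 to 0.35 for *Id3*, -0.95 to 0.35 for *Id1*, -0.80 to 0.13 for *Atoh8*, -0.35 to 0.41 for *Smad6*, -0.52 to 0.50 for *Bambi* and -0.10 to 0.50 for *Smad1*. A zinc effect on *Id2* as large as that of Dex lies outside its interval, while changes of *Id1* close to 2-fold lower do not. *Bmper* had the widest interval, -0.98 to 0.79.

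**Figure D2:**
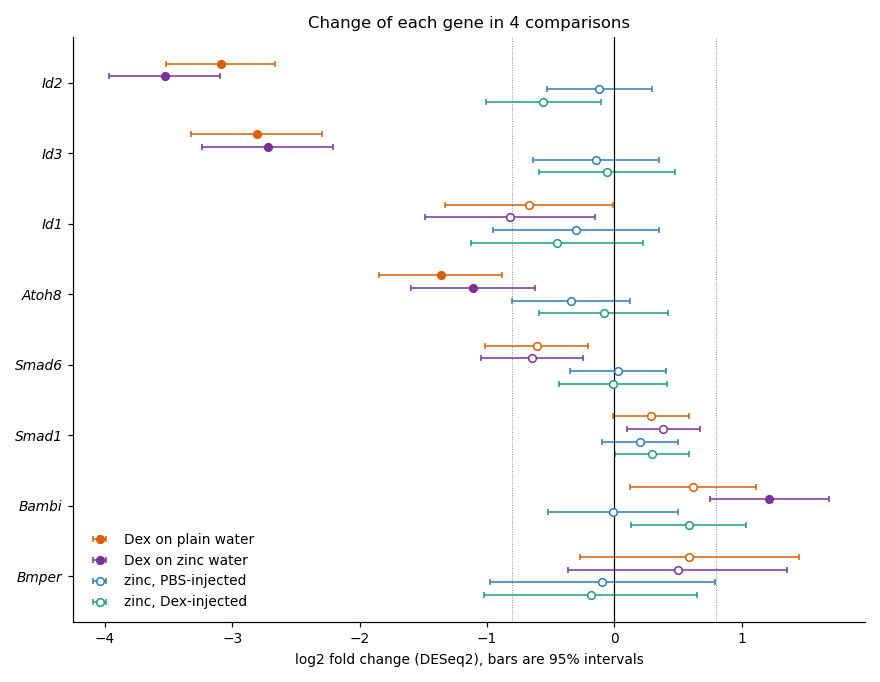
Log2 fold change from DESeq2 (x axis) of each gene (y axis) for Dex on plain water, Dex on zinc water, zinc in PBS-injected mice and zinc in Dex-injected mice, with 95% intervals as bars. Filled points passed an adjusted p under 0.05 and the dotted threshold of 0.8, and open points did not. *Id2*, *Id3* and *Atoh8* are filled on the left for both Dex comparisons, *Bambi* is filled on the right for Dex on zinc water, and all points of both zinc comparisons are open.

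Zinc in Dex-injected mice was compared as zinc-Dex against water-Dex, which shares its mice with the Dex comparisons above. *Bambi* was at 98.8, 75.5 and 71.1 normalized counts in zinc-Dex and 45.7, 58.5 and 59.4 in water-Dex. All zinc-Dex mice were higher, by 0.58 on the log2 scale (SE 0.230, 95% interval 0.13 to 1.03), and the unadjusted p of 0.0110 became 0.250 after adjustment over all genes. *Id2* was at 148, 144 and 157 against 135, 203 and 322, a log2 fold change of -0.56 (SE 0.228, 95% interval -1.004 to -0.11, adjusted p = 0.295). The groups overlapped because water-Dex replicate 1 lay below all zinc-Dex mice, and without that library the log2 fold change was -0.81 (adjusted p = 0.0117), a call. *Smad1* was higher in all 3 zinc-Dex mice (0.30, SE 0.148, adjusted p = 0.476). *Id1* differed by -0.45 (95% interval -1.12 to 0.22), and *Id3* (-0.06), *Smad6* (-0.01), *Atoh8* (-0.08) and *Bmper* (-0.19) by less. None of the 8 was called, where 0.469% of the 12786 genes tested were called. At an unadjusted p under 0.05 were 3 of the 8 in DESeq2 and 3 in edgeR. The share of all genes at that p was not computed, so these counts have no background and are not read as a result. The groups did not overlap for 2 of the 8, against 20.0% of all genes.

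Whether the Dex effect itself differed with zinc was tested by the interaction term. It was 0.60 on the log2 scale for *Bambi* (SE 0.348, 95% interval -0.09 to 1.28, unadjusted p = 0.0865) and -0.44 for *Id2* (SE 0.312, 95% interval -1.05 to 0.17, unadjusted p = 0.158). For *Id3* it was 0.09 (95% interval -0.64 to 0.81), for *Atoh8* 0.26 (-0.43 to 0.94) and for *Id1* -0.15 (-1.09 to 0.79). All adjusted p-values were 0.999, and 0 of the 8 were at an unadjusted p under 0.05 in DESeq2 and 1 in edgeR. Of the 26185 genes tested, 0.0191% were called. *Bambi* passed the test in zinc mice and missed it in water mice, but a difference between its 2 Dex effects was thus not shown.

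The genes upstream of these targets were taken from lists of the pathway. Of 11 genes listed as BMP ligands, among them the protease gene *Bmp1*, 8 had enough reads to be tested with Dex on plain water. Of these, 1 was called lower and 0 higher, beside 4.79% and 4.89% of all genes tested. The called gene is *Bmp10*, a circulating ligand of the ALK1 receptor. It was at 76.7, 82.8 and 77.97 normalized counts in water-PBS and 29.4, 32.97 and 38.6 in water-Dex, and fell by 1.23 on the log2 scale (SE 0.238, adjusted p = 3.7e-06). In zinc mice it was at 68.6, 55.1 and 77.0 with PBS and 26.1, 31.1 and 29.8 with Dex, a log2 fold change of -1.20 (SE 0.247, adjusted p = 1.7e-05). *Bmp2*, made by sinusoidal endothelial cells, was lower with Dex on plain water (log2 fold change -0.56, adjusted p = 9.7e-05) but not called, and had -0.19 (adjusted p = 0.342) on zinc water. *Bmp6*, another ligand gene and named after its values were seen, had 0.07 (adjusted p = 0.881) and -0.06 (adjusted p = 0.902). Its exons overlap those of *Txndc5* on the opposite strand, so its reads may be shared. *Gdf2*, which encodes BMP9, had 0.31 (adjusted p = 0.0516) and 0.57 (adjusted p = 4.2e-05), and *Bmp1*, a procollagen protease named with the BMPs, had 0.14 and 0.31 (adjusted p = 0.282 and 0.0053).

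Of the genes listed as receptors and co-receptors, among them the protease gene *Tmprss6*, 14 were tested by DESeq2 and 13 by edgeR. With Dex on plain water 0 were called by either. In DESeq2, 4.79% of all genes tested were called lower and 4.89% higher. Each tool had 5 at an unadjusted p under 0.05. The share of all genes at that p was not computed, so whether 5 is more than usual is not known. On zinc water, where 4.68% of all genes tested were called lower, 1 was, *Acvr2b*, a type II receptor, with a log2 fold change of -1.50 (SE 0.369, adjusted p = 0.0005), against -0.79 (adjusted p = 0.124) on plain water. *Acvr2b* overlaps *Gm47320*, annotated on the opposite strand, though not in its exons. The most abundant members had small differences. *Tmprss6*, the protease that cleaves hemojuvelin, had log2 fold changes of -0.0002 and -0.09, *Tfr2*, the iron sensor, -0.01 and -0.0008, and *Eng*, the endothelial co-receptor, -0.17 and 0.001. *Hfe2*, which encodes hemojuvelin and is named after its values were seen, was lower with Dex on plain water by 0.78 on the log2 scale (adjusted p = 1.9e-08), just short of the fold threshold, and had -0.62 on zinc water. Of the extracellular BMP antagonists, 8 were tested and 0 were called in either Dex comparison by DESeq2. Of all genes tested, 4.68% to 5.0% were called in each direction. In each comparison 2 antagonists were at an unadjusted p under 0.05, again without a share of all genes to set beside them. With edgeR 3 and 2 were at that p, and *Nbl1*, a secreted antagonist of the DAN family with a mean of 5.10 normalized counts in zinc-PBS and 12.6 in zinc-Dex, was called higher on zinc water (log2 fold change 1.28, adjusted p = 0.0497). *Twsg1*, the most abundant of them, had 0.19 and 0.13.

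**Figure D3:**
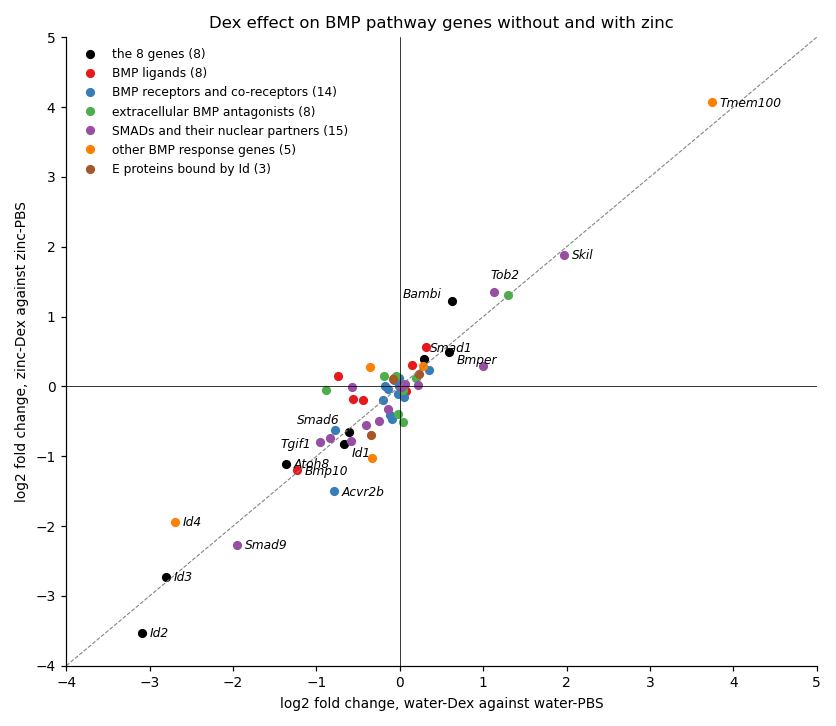
Log2 fold change with Dex on plain water (x axis) against that on zinc water (y axis) for 61 genes tested in both comparisons, coloured by list, with the diagonal dashed. The 8 genes are black, and *Id2* and *Id3* lie at the lower left beside *Smad9* and *Id4*, while *Tmem100* and *Skil* lie at the upper right.

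Among the SMADs and their nuclear partners, 15 were tested, and 2 rose and 2 fell with Dex on plain water, beside 4.89% and 4.79% of all genes tested. *Smad9*, which encodes the third BMP-activated SMAD, was at 296, 266 and 160 normalized counts in water-PBS and 66.0, 62.8 and 58.4 in water-Dex, and fell 3.87-fold (log2 fold change -1.95, SE 0.246, adjusted p = 9.4e-14). In zinc mice it was at 227, 196 and 149 with PBS and 34.8, 33.3 and 49.98 with Dex, a 4.82-fold decrease (-2.27, SE 0.261, adjusted p = 1.8e-16). Of the other BMP-activated SMADs, *Smad1* had log2 fold changes of 0.29 and 0.39, as given above, and *Smad5*, named after its values were seen, had -0.25 (adjusted p = 0.0662) and -0.50 (adjusted p = 2.3e-05). *Smad4*, their common partner, also named after its values were seen, had 0.07 and 0.04.

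The other genes of this list called in either Dex comparison went in different directions. *Skil* (SnoN), a corepressor of SMAD complexes, was at 278, 275 and 238 normalized counts in water-PBS and 704, 1221 and 1175 in water-Dex, and rose 3.92-fold (log2 fold change 1.97, SE 0.239, adjusted p = 8.7e-15). On zinc water it rose 3.69-fold (1.88, SE 0.240). *Tob2*, an antiproliferative protein of the BTG/TOB family, rose by 1.13 (SE 0.151, adjusted p = 3.6e-12) and 1.36 (SE 0.151). Exons of *Tob2* overlap those of *Gm49476* on the opposite strand, so its reads may be shared. *Tgif1*, another corepressor, fell by 0.96 on the log2 scale (SE 0.204, adjusted p = 3.5e-05) on plain water and had -0.79 on zinc water. Without water-PBS replicate 1 its value on plain water was -0.76, which no longer passed the fold threshold. *Ppm1a*, a phosphatase that acts on SMADs, had 0.03 and 0.01, and *Smurf2*, a ubiquitin ligase, 0.01 and -0.02. *Tob1*, also uncalled, was lower on plain water, unlike *Tob2* (log2 fold change -0.57, adjusted p = 0.0030), and had -0.01 on zinc water. *Ski*, named after its values were seen, was lower in both, unlike *Skil*, and not called. Its log2 fold changes were -0.40 (adjusted p = 0.0278) and -0.55 (adjusted p = 0.0016).

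Other genes known to respond to BMP did not share a direction. Of 12 listed, 6 were tested with Dex on plain water, and 1 rose and 1 fell, against the same shares of all genes tested (4.89% and 4.79%). *Id4*, the fourth Id gene, was scarce, with 25 to 42 reads in water-PBS libraries and 3 to 7 in water-Dex libraries, and fell 6.47-fold (log2 fold change -2.69, SE 0.530, adjusted p = 5.9e-06). On zinc water it fell 3.82-fold (-1.93, SE 0.513, adjusted p = 0.0015). *Id4* overlaps exons of *A330033J07Rik* and *Gm49291* on the opposite strand, so its reads may be shared. *Tmem100*, a membrane protein induced through ALK1 in endothelium, was the opposite case. It was at 14.7, 0.910 and 1.10 normalized counts in water-PBS and at 61.9, 80.8 and 76.2 in water-Dex, so that every treated mouse lay far above every control. The log2 fold change was 3.74 (SE 0.470, adjusted p = 6.8e-14), and 6.195 without water-PBS replicate 1, the control with 14 of the reads. With zinc it was 4.07 (SE 0.471), from 7.22, 5.25 and 1.81 to 82.5, 80.0 and 76.9 normalized counts.

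*Smad7*, the second inhibitory SMAD, was at 91.4, 215 and 224 normalized counts in water-PBS, 153, 129 and 102 in zinc-PBS, 51.8, 98.9 and 146 in water-Dex, and at 74.9, 83.3 and 71.1 after Dex on zinc water. Controls and water-Dex mice overlapped, and the log2 fold change was -0.84 (SE 0.338, adjusted p = 0.0594). It was called in zinc-Dex against water-PBS alone (-1.21, SE 0.342, adjusted p = 0.0029), and there not without zinc-Dex replicate 1 (adjusted p = 0.0806). *Hamp*, which encodes hepcidin, had a mean of 4172 normalized counts in water-PBS and 3314 in water-Dex (log2 fold change -0.33, SE 0.435, adjusted p = 0.672), and 4710 and 2309 in zinc-PBS and zinc-Dex (-1.03, SE 0.436, adjusted p = 0.0802), so DESeq2 called it in neither comparison. With edgeR the decrease on zinc water was called (-1.03, adjusted p = 0.0373). *Cdh5*, an endothelial cadherin, had 0.27 (adjusted p = 0.0295) and 0.29 (adjusted p = 0.0233). In the 2 zinc comparisons and for the interaction, 0 genes of any of these lists were called by DESeq2 or edgeR, with 0 to 2 genes of each list at an unadjusted p under 0.05. For these counts too, the share of all genes at that p was not computed.

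**Figure D4:**
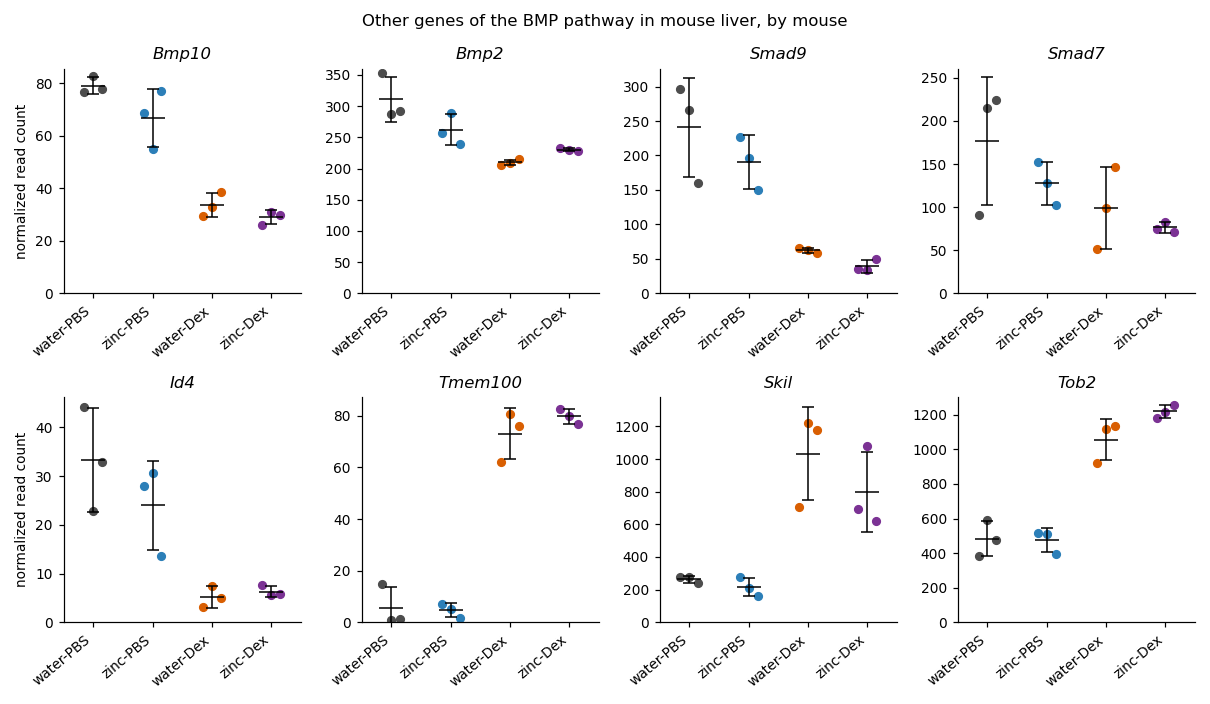
Normalized read count (y axis, linear, from 0) of 8 further genes of the pathway in the 3 mice of each group (x axis). Points are mice, horizontal lines the group mean and bars ± 1 SD. *Bmp10*, *Smad9* and *Id4* were lower and *Tmem100*, *Skil* and *Tob2* higher in every Dex-injected mouse than in every PBS-injected mouse.

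The binding partners of the Id proteins were compared next. Of the 3 E protein genes, 0 were called in either Dex comparison by DESeq2 or edgeR, with 1 at an unadjusted p under 0.05 in each. How many of all genes reached that p was not computed. In DESeq2, 4.68% to 5.0% of all genes tested were called in each direction. *Tcf12* had log2 fold changes of -0.08 and 0.10 and *Tcf4* 0.23 and 0.18 with Dex on plain and on zinc water. *Tcf3* had -0.34 (adjusted p = 0.122) and -0.70 (adjusted p = 0.0001), the latter lower but within the fold threshold. A sum over the 4 Id genes and one over the 3 E protein genes, both in normalized counts per kb of exon, were chosen after the values were seen and are given as a description. The Id sum was 1203, 1252 and 1814 in the 3 water-PBS mice, 1541.5, 1245 and 1068 in zinc-PBS, 150.03, 293 and 337 in water-Dex, and it was 215, 203 and 189 after Dex on zinc water. The E protein sum had group means of 68.7 ± 2.30 (SD, n = 3), 80.0 ± 8.11, 60.5 ± 1.39 and 62.6 ± 2.76 in the same order. The ratio of the sums was 20.8 ± 5.65 in water-PBS, 16.3 ± 4.02 in zinc-PBS, 4.32 ± 1.70 in water-Dex and 3.24 ± 0.328 in zinc-Dex. Its size depends on the annotated exon lengths used. These were 27382 bases for *Tcf4*, 15529 for *Tcf12* and 4039 for *Tcf3*, against 1160 to 3849 for the Id genes. In water-PBS *Tcf3* had fewer normalized counts than *Tcf12* (means of 157 and 355) but more per kb (38.9 and 22.8). The size of the Id excess within a group is therefore uncertain. The sums are of transcripts, and protein was not measured here.

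The make-up of the Id pool is likewise a description. *Id2* gave 54.7% ± 5.88 of the Id sum in water-PBS and 34.8% ± 5.63 in water-Dex, *Id3* 33.6% ± 6.59 and 28.5% ± 6.44, and *Id1* 11.03% ± 0.581 and 36.2% ± 7.94. In zinc-Dex the shares were 30.5% ± 3.14 for *Id2*, 33.1% ± 3.07 for *Id3* and 35.6% ± 3.13 for *Id1*. *Id4* gave under 1% in each group mean.

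**Figure D5:**
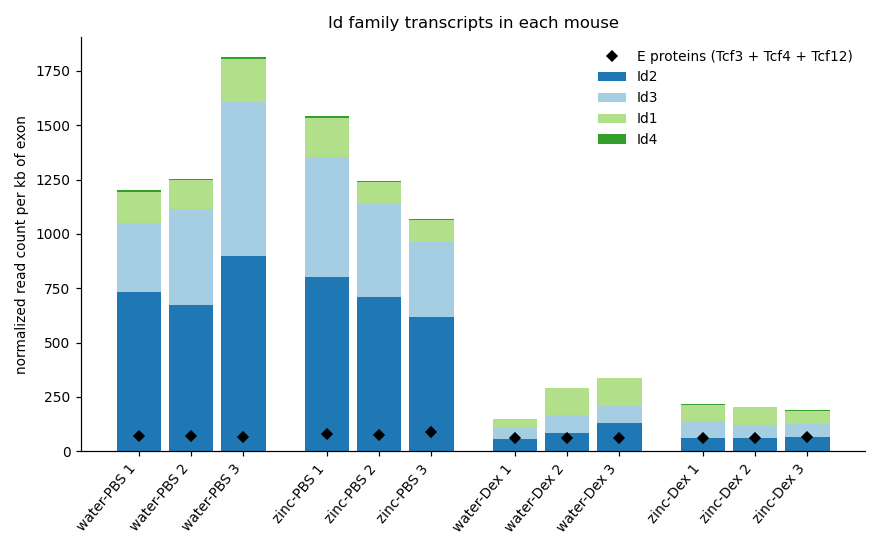
Normalized read count per kb of exon (y axis, from 0) of *Id1* to *Id4*, stacked, in each of the 12 mice (x axis), with the sum of *Tcf3*, *Tcf4* and *Tcf12* as diamonds. The stacks reached 1068 to 1814 in PBS-injected mice and 150.03 to 337 in Dex-injected mice, and the diamonds stayed between 59.0 and 89.1. Heights depend on the annotated exon length of each gene.

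Because the libraries came from whole liver, fewer cells of a type and less RNA per cell cannot be told apart. Hepatocyte markers, 5 genes in all, summed to 1178100 to 1382300 normalized counts in PBS-injected and 1544700 to 1694700 in Dex-injected mice. Of 7 pancreas and gut markers, *Cpa1*, *Pnlip* and *Cel* were at 3 reads or fewer in every library, while the whole list summed to 590 to 756 normalized counts in water-PBS, 631 to 752 in zinc-PBS, 523 to 685 in water-Dex and 545 to 658 in zinc-Dex. Of this list *Vil1* was called lower with Dex on zinc water, from a mean of 19.96 normalized counts to 4.81 (log2 fold change -2.04, adjusted p = 0.0043), and its part in the results was not tested. The summed level of 9 sinusoidal endothelial markers, the cell type in which several BMP genes are made, was 5411 to 5740 normalized counts in water-PBS, 5198 to 5722 in water-Dex, 5458 to 5656 in zinc-PBS and 5476 to 5588 in zinc-Dex. The ranges overlapped between all groups, although single genes of the list were called with Dex on plain water, *Lyve1* higher (log2 fold change 2.53) and *Kdr* and *Gpr182* lower (-1.14 and -0.94). The same genes were called with Dex on zinc water (2.81, -1.26 and -0.88). On plain water the mean of *Lyve1* rose from 160 to 927 normalized counts, while *Kdr* fell from 892 to 405 and *Gpr182* from 437 to 228. The sum thus holds opposite changes and does not show whether the amount of these cells changed. The 9 stellate cell markers summed to 5995 to 6222 in water-PBS and 6638 to 6773 in water-Dex, and to 5635 to 5675 in zinc-PBS and 6386 to 7500 in zinc-Dex. The 7 Kupffer cell markers summed to 4810 to 6629 in water-PBS and 5124 to 6256 in water-Dex. The 6 lymphocyte markers summed to 42.8 to 58.8 normalized counts in water-PBS, 43.7 to 62.3 in zinc-PBS, 12.8 to 20.3 in water-Dex and 23.1 to 26.1 in zinc-Dex. With Dex the lymphocyte sum was lower and the hepatocyte and stellate sums were higher, and their part in the results for the 8 genes was not tested. The 5 cholangiocyte markers summed to 731 to 839 in water-PBS, 588 to 814 in water-Dex, 657 to 1159 in zinc-PBS and 947 to 1164 in zinc-Dex.

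The genes whose pattern over the 12 libraries was closest to each of the 8 were found by the root mean square difference of centred log2 normalized counts, among the 9574 genes whose mean was 50 or more. The closest gene to *Id2* was *Id3*, with a difference of 0.445, followed by *Angptl8* (0.468), a hepatocyte protein induced by feeding, and *Arrdc3* (0.475). *Id3* was followed most closely by *Rnf152* (0.241), *Mid1ip1* (0.331) and *Neurl3* (0.369). The closest gene to *Id1* was *Smad7* (0.335), then *Pcdh12* (0.337), an endothelial protocadherin, and *Irak2* (0.340). *Atoh8* was nearest to *Rilpl2* (0.211), *Cyp2d38-ps* (0.230) and *Bmp10* (0.232). For *Smad6* they were *Rnpep* (0.126), *Epha1* (0.128) and *Fam129a* (0.137), for *Bambi* *Map2k3* (0.179), *H3f3b* (0.191) and *Smoc1* (0.204), and for *Smad1* *Ank* (0.103), *Dstn* (0.111) and *Hipk3* (0.116). *Bmper* had too low a mean for this comparison. All of these patterns include the difference between PBS and Dex, and the likeness is a description with no test.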

How the data were processed

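Liver RNA of 12 mice (3 in each of 4 groups) was made into stranded TruSeq libraries and read from a single end. Per the labels and the study's methods, the authors trimmed reads with Trimmomatic, mapped them to mm10 with HISAT2 2.0.4 and counted reads on Ensembl genes with featureCounts, leaving out multimapping reads. The annotation release and the strand setting are not given in the sources used here, so levels of genes that overlap others are uncertain. The deposited counts had no normalization, each column was whole numbers, and 0 columns were left unused. Total counts were 9091152 to 12303527, and replicates differed by 5.7 to 18.8 times counting noise (chi-square per degree of freedom).

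Counts were fitted with DESeq2 1.42.0 (R 4.3.3) the tool that the study's methods name, in 1 model of the 12 libraries with a coefficient per group, a design those methods do not state, with unshrunken Wald tests, default filtering and Benjamini-Hochberg adjustment over all genes. Calls required an adjusted p under 0.05 together with a log2 fold change beyond 0.8 in either direction. The script was tested on simulated data. With 3 mice against 3, an exact permutation test cannot go below p = 0.10. Alternatives were edgeR 4.0.16 (quasi-likelihood, TMM, filterByExpr), TMM factors, genes with at least 10 counts in 3 libraries (13255 genes), the replicate number as a term, each library left out, the 6 libraries compared and no fold threshold.

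The 8 genes, the lists and the tests were chosen with earlier results of these data known. The text names the 8 genes, genes of the pathway lists that were called, the 3 most abundant uncalled genes of each list or fewer, and for each of the 8 whose mean was 50 normalized counts or more the 3 genes of most similar pattern (log2 with a pseudocount of 1). Outside this rule, *Hfe2*, *Bmp6*, *Smad4*, *Smad5* and *Ski* were named after their values were seen. Symbols came from GENCODE M21 (54723 of 54838 rows), upstream sequences from RefSeq (GRCm38.p6).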

Additional observations from a re-analysis of the deposited data

How the results depend on the processing

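Counts of called genes among the 8 stayed at 3 to 4 for Dex on plain water, 4 to 7 for zinc-Dex against water-PBS and 4 to 6 for Dex on zinc water over all alternatives, and at 0 for zinc alone and the interaction. The counts of 7 and 6 came from dropping the fold threshold, so that an adjusted p under 0.05 sufficed. With the threshold kept and each library left out in turn, these 2 comparisons had at most 5. In zinc-Dex against water-Dex the count ran from 0 to 1 when each library was left out in turn, the 1 being *Id2* without water-Dex replicate 1. *Id2* lay between -3.47 and -2.83, *Id3* between -3.04 and -2.44 and *Atoh8* between -1.62 and -1.11 (log2 fold change, Dex on plain water) and were called under every alternative run. Of 568 recomputed values of the 8 genes, 523 kept their direction and their side of the threshold, 6 lost a call (all *Id1* in zinc-Dex against water-PBS), 4 gained one and 35 changed sign. The gains were *Smad6* without replicate 3 of water-Dex (-0.80) or of zinc-Dex (-0.81), *Id1* with Dex on zinc water in a fit of the 6 libraries compared (-0.82, adjusted p = 0.0105) and *Id2* in zinc-Dex against water-Dex (-0.81).

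The changes of sign all came from leaving out 1 library, in values of at most 0.26 in size. For zinc alone the range with 1 library left out was -0.21 to 0.010 for *Id2*, -0.38 to 0.22 for *Id3*, -0.012 to 0.079 for *Smad6*, -0.089 to 0.093 for *Bambi* and -0.37 to 0.11 for *Bmper*. In zinc-Dex against water-Dex it was -0.23 to 0.070 for *Id3*, -0.17 to 0.19 for *Smad6*, -0.36 to 0.17 for *Atoh8* and -0.46 to 0.12 for *Bmper*. For the interaction it was -0.52 to 0.19 for *Id1*, -0.28 to 0.32 for *Id3*, -0.20 to 0.16 for *Smad6*, -0.024 to 0.51 for *Atoh8*, -0.37 to 0.21 for *Bmper* and -0.025 to 0.19 for *Smad1*. The cause was not tested. In the fit of the 6 libraries compared, the adjusted p of *Smad6* with Dex on plain water was 0.0706 and that of *Smad1* with Dex on zinc water 0.121.

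Same-numbered replicates did not clearly deviate together (1 of 18 pairs of libraries correlated above 0.1, range -0.204 to 0.191 over 9574 genes). No pairing by number was seen, but weak correlations cannot exclude a small shared effect. With the replicate block, *Id1* in zinc-Dex against water-PBS had a log2 fold change of -1.10 and was not called, and the other calls among the 8 genes were the same. Depth limits *Bmper*, with 10 to 30 reads per library, and *Id4*, with 3 to 42.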
